A study of Homo sapiens with 5 samples.

Results

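MALAT1, NEAT1 and KCNQ1OT1 are long noncoding RNAs that are kept in the nucleus. They were selected by symbol from the 36601 features of 5 single-cell libraries, so the members are 3 of 36601 genes, and all 3 were found. They were chosen with results of these libraries known, in particular for how their share of a cell's unique molecular identifiers (UMIs, counted RNA molecules) goes with UMI depth and with the share of mitochondrially encoded (MT-) RNA. Their levels and those relations are therefore given as descriptions.

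All libraries came from MDA-MB-468, a human cell line from a triple-negative breast tumour that carries an amplified EGFR gene. PF0517515 is named in the study as an ACC inhibitor. ACC, acetyl-CoA carboxylase, supplies the malonyl-CoA from which cells build fatty acids. The groups were cells untreated at 0 h, cells given PF0517515 for 6 h, cells untreated for 72 h, cells given PF0517515 for 72 h, and recovery cells taken after 72 h of PF0517515. Dose, vehicle and recovery time are not in the labels. No library of cells untreated for 6 h was analysed here, so the inhibitor and time in culture cannot be told apart at 6 h. Nor is any untreated library known to match the recovery cells in time. Recovery and time in culture therefore cannot be told apart either. Each group was 1 library, so the spread between samples of a group is unknown and no test is given. Ranges in parentheses are exact 95% intervals that cover counting error only.

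After filtering, 3705, 3006, 2920, 1927 and 3537 cells were kept in the order 0 h untreated, 6 h inhibitor, 72 h untreated, 72 h inhibitor and recovery, which is used throughout. Their median depth was 28980, 33712.5, 29231.5, 41573 and 26540 UMIs per cell, and the median MT- share was 5.63%, 6.06%, 6.17%, 3.31% and 2.55%. All 12 epithelial markers reached 10 CPM (a gene's UMIs per 1000000 UMIs of the library) in every library, and 0 of 14 markers of blood, endothelial, stromal and liver cells reached it in any library, with a summed level of 7.27 to 17.7 CPM. Any pair of libraries shared at most 0.232% of the smaller library's barcodes.

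MALAT1 is among the most abundant noncoding RNAs of mammalian cells and lies in nuclear speckles, bodies rich in splicing factors. NEAT1 is the RNA scaffold of paraspeckles, nuclear bodies that hold proteins such as NONO and SFPQ, and only its long isoform builds them. KCNQ1OT1 is transcribed antisense to KCNQ1 from the paternal allele and silences genes of its imprinted domain in cis. All are RNA polymerase II transcripts. MALAT1 and the long NEAT1 isoform do not end in an ordinary poly(A) tail: RNase P cuts them in front of a tRNA-like small RNA, and a genomically encoded A-rich tract folds with upstream U-rich motifs into a triple helix that protects the end. A 3' kit that primes on A-rich RNA can therefore meet both an encoded A tract and, for the short NEAT1 isoform, a true poly(A) tail.

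In GENCODE 29 on GRCh38, NEAT1 (ENSG00000245532) spans chromosome 11 from 65422774 to 65445540 and MALAT1 (ENSG00000251562) spans 65497688 to 65506516, both on the plus strand with 52147 bases between them. KCNQ1OT1 (ENSG00000269821) lies on the minus strand of the same chromosome from 2608328 to 2699994, inside KCNQ1 (2444684 to 2849110, plus strand). The 100 bases that end at the RNase P cut, just before the annotated tRNA-like RNA, are shown because they hold the encoded A-rich end. The capitals mark the last 20 bases, and both are the plus strand from GENCODE 29 transcripts on GRCh38, chr11:65506017-65506116 for MALAT1 and chr11:65445441-65445540 for NEAT1.
MALAT1: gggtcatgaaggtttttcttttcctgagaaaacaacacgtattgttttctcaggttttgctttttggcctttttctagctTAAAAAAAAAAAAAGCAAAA
NEAT1: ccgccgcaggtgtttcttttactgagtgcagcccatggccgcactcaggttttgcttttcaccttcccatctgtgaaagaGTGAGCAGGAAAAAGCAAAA
Of the 20 bases in capitals, 17 were A in MALAT1 and 11 in NEAT1. Upstream of the capitals both sequences hold runs of T, the U-rich motifs in the RNA. Runs of 8 or more A on the transcribed strand numbered 2 in the MALAT1 transcript of 8708 bases, with the longest at 13. The long NEAT1 transcript of 22743 bases held 6, with the longest at 22, and none of them lies in the 100 bases shown. The short NEAT1 transcript of 3441 bases held 0. The unspliced KCNQ1OT1 transcript of 91667 bases held 33, with the longest at 29. Such a run occurs in 10.7% of the 56111 long noncoding transcripts in GENCODE 29. That share is not matched for transcript length, so it does not say whether the runs are many for transcripts this long. The counts do not say at which tract a UMI was primed, nor which NEAT1 isoform it came from.

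MALAT1 took the smallest share of UMIs in the 0 h untreated library and the largest in recovery. It gave 394988, 769611, 804772, 741961 and 1310324 UMIs, which is 0.345%, 0.722%, 0.857%, 0.869% and 1.28% of all UMIs. The untreated and inhibitor libraries at 72 h lay next to each other and the 0 h library lay apart below them. The median cell's share was 0.173%, 0.677%, 0.818%, 0.747% and 1.05%, so by the median cell the pair at 72 h changed places. NEAT1 followed a like order. It gave 48871, 85696, 111890, 118040 and 213072 UMIs, which is 0.0427%, 0.0803%, 0.119%, 0.138% and 0.209%, with a median cell at 0.0320%, 0.0689%, 0.103%, 0.117% and 0.182%. NEAT1 kept the same order of libraries by the pooled share and by the median cell.

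KCNQ1OT1 was hardly detected, with 24, 33, 30, 19 and 19 UMIs in 24, 33, 29, 16 and 19 cells. These are 0.648% (0.416 to 0.962) of cells at 0 h, 1.10% (0.757 to 1.54), 0.993% (0.666 to 1.42), 0.830% (0.475 to 1.34) and 0.537% (0.324 to 0.838). In a single cell line no cell type that lacks the gene was there to give a background share. Its pooled level was 0.186 to 0.319 CPM and all of its 6 ratios had intervals that hold 1. KCNQ1, its sense partner, gave 467 to 572 UMIs per library (4.57 to 6.03 CPM). Whether counting used strand is not given in the sources used here, so reads of these overlapping genes are uncertain as to their source.

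**Figure D1:**
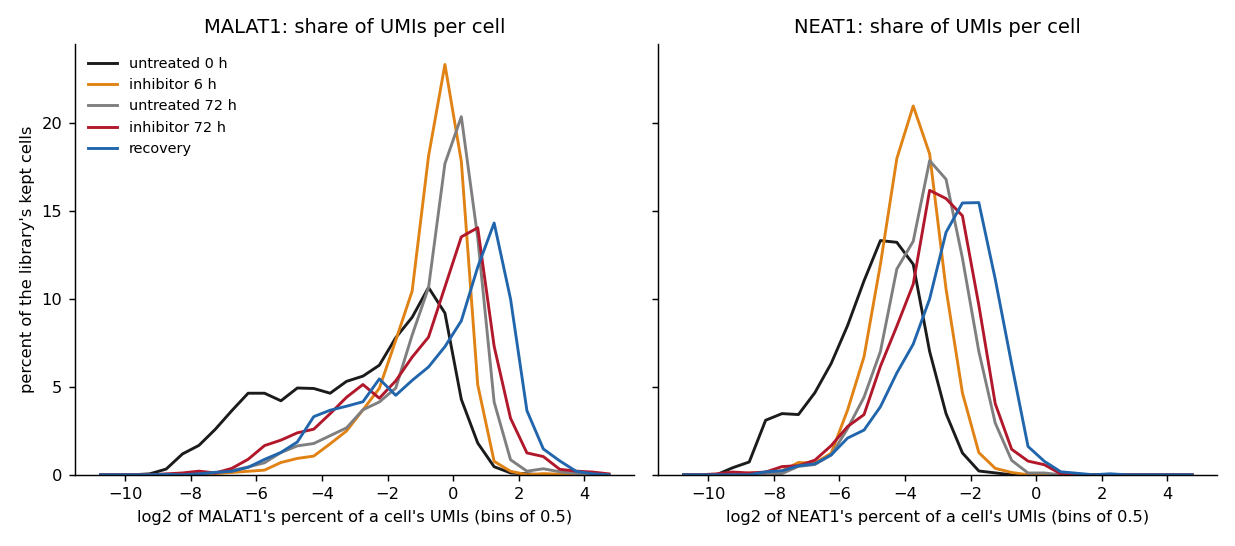
Share of a cell's UMIs taken by MALAT1 (left) and NEAT1 (right), on a log2 axis in bins of 0.5, as percent of each library's kept cells. The 0 h untreated library has a long shoulder of low-MALAT1 cells, and the recovery library peaks farthest to the right for both RNAs. Cells without a UMI of the gene are not drawn: 75, 3, 1, 11 and 8 for MALAT1 and 284, 10, 17, 23 and 25 for NEAT1 in the order of the legend.

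The first comparison asked how MALAT1 and NEAT1 differed after 72 h with and without the inhibitor. MALAT1 was 1.01-fold higher with the inhibitor (1.01 to 1.02), and NEAT1 was 1.16-fold higher (1.15 to 1.17). Neither of the 2 members that reached 10 CPM was 2-fold apart, against 9.33% of all 9346 genes at that level in at least 1 of the libraries. Of those genes, 62.7% had a lower ratio than MALAT1 and 76.7% a lower ratio than NEAT1, and the median log2 ratio of all genes was -0.14. With cells low in both cell cycle lists, NEAT1 was at 0.965-fold, and with cells of 2% to 6% MT- UMIs, MALAT1 was at 0.908-fold, so neither direction held under every alternative. The libraries also differed in ribosomal protein RNA, with a median of 16.5% of UMIs untreated and 25.4% with the inhibitor. Among cells of 18% to 24% ribosomal protein UMIs (824 untreated, 573 inhibitor), MALAT1 was 2.92-fold higher with the inhibitor and NEAT1 2.29-fold higher. That window lies above the untreated median and below the inhibitor median, so it sets opposite sides of the libraries against each other. Within each library the MALAT1 share fell as the ribosomal protein share rose. In the window MALAT1 was at 0.428% untreated and 1.25% with the inhibitor, against 0.857% and 0.869% over all cells. These folds are therefore no measure of the inhibitor.

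Against 0 h untreated cells, MALAT1 was 2.09-fold higher after 6 h of inhibitor (2.08 to 2.10) and NEAT1 1.88-fold higher (1.86 to 1.90). MALAT1 was the 1 member past 2-fold, where 2.13% of 9075 genes were, and 98.5% of genes lay below it. Between the untreated libraries, MALAT1 was 2.48-fold higher at 72 h than at 0 h (2.47 to 2.49) and NEAT1 2.79-fold higher (2.76 to 2.82). Here both members at 10 CPM or more were past 2-fold, where 7.04% of 9303 genes were, and 97.7% and 98.5% of genes lay below them. These comparisons share the 0 h library, whose MALAT1 and NEAT1 shares were the lowest of the 5. Against the 72 h untreated library in its place, the log2 ratio of MALAT1 at 6 h of inhibitor was -0.25.

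From 6 h to 72 h of inhibitor, MALAT1 was 1.20-fold higher (1.20 to 1.21) and NEAT1 1.72-fold higher (1.71 to 1.74), and neither was 2-fold apart, against 15.8% of 9359 genes. Recovery cells had 1.48-fold more MALAT1 than cells at 72 h of inhibitor (1.47 to 1.48) and 1.51-fold more NEAT1 (1.498 to 1.52), with 9.3% of 8943 genes 2-fold apart. They had 1.496-fold more MALAT1 than cells untreated for 72 h and 1.75-fold more NEAT1 (1.74 to 1.76), with 15.5% of 9405 genes 2-fold apart. In these comparisons 0 of the 2 members at 10 CPM or more passed 2-fold. Median-of-ratios scaling put NEAT1 in recovery at 2.10-fold over 72 h untreated. Among cells of 18% to 24% ribosomal protein UMIs, recovery held 0.976-fold the MALAT1 share and 1.15-fold the NEAT1 share of 72 h of inhibitor. Among cells of 4% to 6% long-span UMIs, a share described further on, it held 1.92-fold the MALAT1 share and 1.82-fold the NEAT1 share. The size of this difference thus depended on which cells were set side by side.

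**Figure D2:**
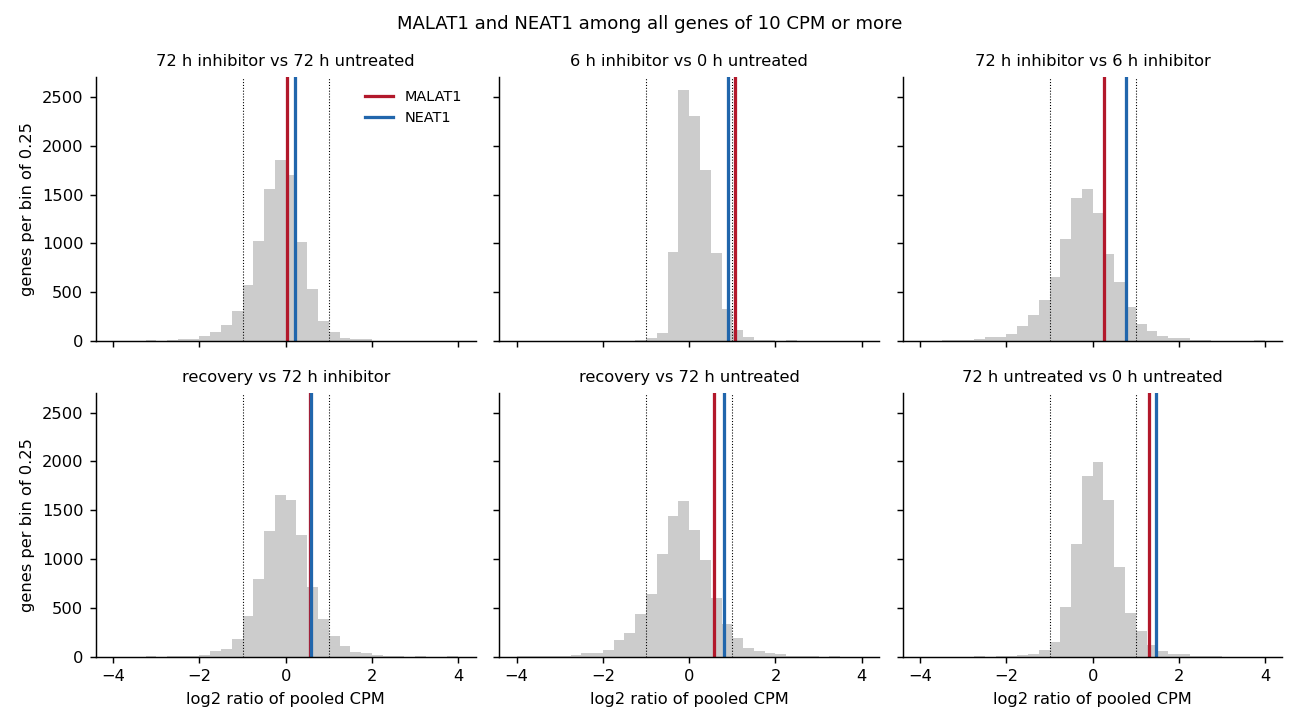
Histograms of the log2 ratio of pooled CPM for all genes of 10 CPM or more in 6 comparisons, with MALAT1 and NEAT1 as lines and dotted lines at 2-fold. Both RNAs lie in the upper tail against the 0 h library. At 72 h with and without the inhibitor, 62.7% of genes lie below MALAT1 and 76.7% below NEAT1.

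Cells of 1 library covered a wide range of MALAT1 and NEAT1 shares. The 90th percentile of the MALAT1 share was 90.1-fold above the 10th at 0 h untreated, 8.06-fold at 6 h of inhibitor, 15.6-fold at 72 h untreated, 39.9-fold at 72 h of inhibitor and 46.2-fold in recovery. At 0 h the 10th percentile was 0.00962% and the 90th 0.867%, while in recovery they were 0.0739% and 3.42%. The same ratio for NEAT1 was 29.6, 5.78, 8.33, 11.3 and 12.9. By this ratio the spread was widest at 0 h and narrowest at 6 h for both RNAs. Another measure gave another order. After thinning each cell to 5000 UMIs, the variance of MALAT1 counts over their mean was 26.0, 15.2, 29.2, 85.1 and 91.1, lowest at 6 h and highest in recovery. That measure tends to rise with the mean count itself, which was 16.7, 35.5, 44.3, 51.1 and 73.6, so it does not rank the libraries by width of spread alone. These ranges include counting noise, which weighs most on the low NEAT1 shares at 0 h, where the median cell held 9 NEAT1 UMIs.

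Cells under 0.05% MALAT1 made up 31.7% of the 0 h untreated library (1176 of 3705; 30.2 to 33.3). They made up 2.83% (85 of 3006), 5.03% (147 of 2920), 9.29% (179 of 1927) and 5.97% (211 of 3537) of the others. The limit was set after seeing the data and cuts a range, not a cell type: 243, 39, 67, 63 and 136 cells lay near it, between 0.04% and 0.0625%. These cells were not shallow. Their median depth at 0 h was 27959 UMIs against 29346 in the other cells, and at 72 h of inhibitor it was 50673 against 40737. Their median MT- share at 0 h was 5.24% against 5.81%. NEAT1 took 0.0108% of their UMIs at 0 h against 0.0573% in the others, and in each of the other libraries it was also lower in these cells, for example 0.0270% against 0.222% in recovery. Their median ribosomal protein share at 0 h was 21.5% against 17.6%, and GAPDH, a cytosolic enzyme of glycolysis, took 0.517% against 0.306%. They had 5031 genes at the median against 6218. Without these cells, which were chosen by their MALAT1 share itself, the pooled share was 0.494%, 0.742%, 0.911%, 0.975% and 1.38%, a description that supports nothing about the libraries. At the other end, cells of 2% MALAT1 or more numbered 23, 32, 172, 261 and 1079, which was 30.5% of the recovery library, with a median there of 22986 UMIs.

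The relation of MALAT1 to UMI depth ran in opposite directions in different libraries. Cells were split into quintiles (5 groups of equal size) by total UMIs. At 0 h untreated, the shallowest quintile held 0.234% MALAT1 and the deepest 0.406%, so the shallowest was 0.578-fold the deepest (0.571 to 0.585). At 6 h of inhibitor the values were 0.632% and 0.760% (0.832-fold; 0.826 to 0.839). At 72 h untreated they were 0.905% and 0.745%, or 1.22-fold higher in the shallowest quintile (1.21 to 1.22). At 72 h of inhibitor they were 1.62% and 0.677% (2.39-fold; 2.38 to 2.41), and in recovery 2.12% and 0.909% (2.33-fold; 2.32 to 2.35). The value at 72 h of inhibitor moved with the cells used: it was 1.58-fold in cells of 2% to 6% MT- UMIs and 3.90-fold between the shallowest and deepest deciles, where recovery was at 2.26-fold and 3.50-fold. At 72 h untreated the fold was 1.045 without the 5% of cells with most UMIs and 1.65 between deciles. The shallowest quintile was thus higher in 3 of 5 libraries. Spearman's rho between the MALAT1 share and UMIs over cells was 0.15, 0.13, -0.06, -0.23 and -0.23, over the kept cells of each library, and the share has the depth in its denominator. The shallow quintiles did not lie at like depths: their median was 20977 UMIs at 0 h, 14108.5 at 72 h of inhibitor and 12292 in recovery. Sorted by detected genes in place of UMIs, MALAT1 went from 0.0737% in the lowest quintile to 0.605% in the highest at 0 h, from 0.469% to 0.877% at 6 h and from 0.659% to 0.904% at 72 h untreated. It was lower in the highest quintile at 72 h of inhibitor (1.22% to 1.01%) and in recovery (1.49% to 1.37%). Within 20000 to 40000 UMIs the MALAT1 share was 0.337%, 0.696%, 0.912%, 0.909% and 1.403%, so the order of libraries was close to that over all cells.

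Over all kept cells, NEAT1 was higher in shallow cells in 4 libraries and hardly went with depth at 0 h. The shallowest quintile was 1.05-fold the deepest at 0 h untreated (1.02 to 1.09) and 1.27-fold at 6 h of inhibitor (1.24 to 1.30). It was 1.63-fold at 72 h untreated (1.603 to 1.67), 1.49-fold at 72 h of inhibitor (1.46 to 1.53) and 1.70-fold in recovery (1.68 to 1.73). The value at 72 h of inhibitor moved with the cells used: it was 2.38-fold between deciles and 1.12-fold in cells of 2% to 6% MT- UMIs. In that MT- window the 0 h library was at 1.30-fold and so lay above 72 h of inhibitor. At 0 h the 1.05-fold difference over all cells turned without the 5% of cells with most UMIs, to 0.984-fold. NEAT1 was then higher in the shallowest quintile in 4 of 5 libraries, against 5 of 5 over all cells. At 0 h its quintiles between the ends were higher than both ends, with 0.0463% in the middle quintile against 0.0404% and 0.0384%. Spearman's rho was 0.02, -0.12, -0.22, -0.12 and -0.18. KCNQ1OT1 had 1, 4, 7, 1 and 1 UMIs in the shallowest quintiles and 5, 6, 9, 5 and 7 in the deepest, too few for a relation with depth.

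The mitochondrial share was only weakly tied to both RNAs, and not in the same direction everywhere. Between the highest and the lowest quintile by MT- share, MALAT1 was 1.04-fold at 0 h untreated (0.360% and 0.345%), 0.800-fold at 6 h of inhibitor, 0.889-fold at 72 h untreated and 0.771-fold at 72 h of inhibitor. In recovery it was 1.397-fold (1.46% and 1.05%), so the highest-MT quintile was higher in 2 of 5 libraries. With deciles in place of quintiles the 0 h library was at 0.997-fold and only recovery was higher, at 2.11-fold. NEAT1 was higher in the highest-MT quintile in 4 of 5 libraries, by 1.41-fold at 0 h, 1.20-fold at 72 h untreated, 1.27-fold at 72 h of inhibitor and 1.48-fold in recovery, and was at 0.882-fold at 6 h of inhibitor. Spearman's rho with the MT- share was 0.12, -0.12, -0.08, -0.06 and 0.11 for MALAT1 and 0.20, -0.04, 0.09, 0.13 and 0.18 for NEAT1.

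**Figure D3:**
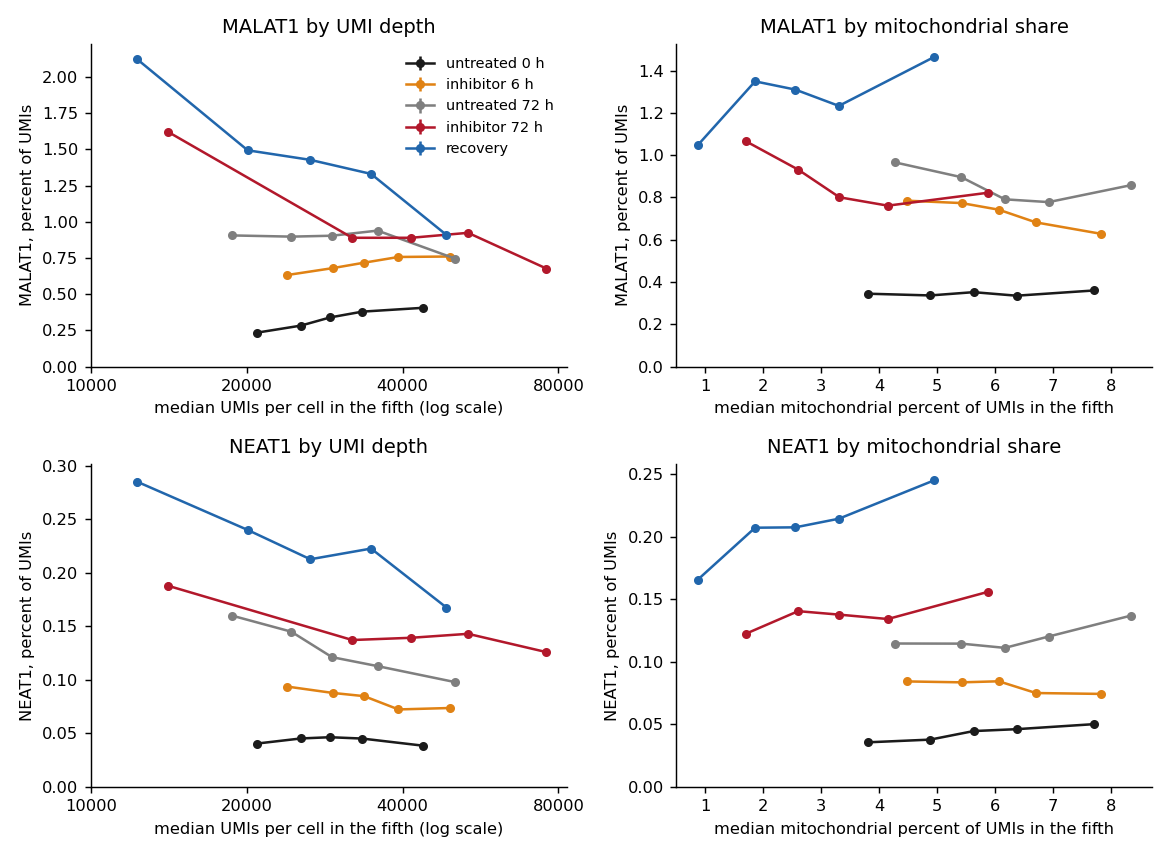
MALAT1 (top) and NEAT1 (bottom) as percent of all UMIs in quintiles of each library's cells by UMIs per cell (left, log axis) and by mitochondrial share (right), placed at the quintile's median, with exact 95% counting intervals that are mostly smaller than the points. MALAT1 is higher in deep cells at 0 h and 6 h and higher in shallow cells at 72 h of inhibitor and in recovery.

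Both RNAs were tied more closely to other RNA in the cell than to depth or mitochondrial share. Unspliced RNA is also nuclear, and in counts that include introns it can weigh more in genes of long genomic span. Unspliced RNA was not measured apart here. Whether introns were counted is not given in the sources used here. The decile of protein-coding genes with the longest span (939 of 9389 genes at 10 CPM or more, each at least 166.8 kb) was used as a second reading of the cell that shares no gene with the members. Spearman's rho between the MALAT1 share and the share of these genes over cells was 0.87, 0.63, 0.73, 0.79 and 0.84, and for NEAT1 0.78, 0.52, 0.64, 0.74 and 0.81. From the lowest to the highest quintile by long-span share, MALAT1 went from 0.0240% to 0.805% at 0 h untreated, a 33.5-fold difference. It went from 0.272% to 1.02% at 6 h (3.76-fold), from 0.186% to 1.47% at 72 h untreated (7.93-fold), from 0.116% to 1.93% at 72 h of inhibitor (16.7-fold) and from 0.138% to 2.97% in recovery (21.6-fold). NEAT1 went from 0.00630% to 0.0847% at 0 h and from 0.0540% to 0.455% in recovery.

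Ribosomal protein genes, whose RNA is mostly cytoplasmic, went the other way. Spearman's rho with their share was -0.72, -0.54, -0.51, -0.55 and -0.65 for MALAT1 and -0.60, -0.35, -0.40, -0.51 and -0.55 for NEAT1. From the lowest to the highest quintile by ribosomal protein share, MALAT1 went from 0.765% to 0.0507% at 0 h and from 2.83% to 0.332% in recovery. Shares of one total are not independent of each other, so part of such an opposite course is arithmetic, although the members' own share is small. On both of these axes each step between neighbouring quintiles went the same way in all 5 libraries, for MALAT1 and for NEAT1.

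Inside a fixed window of long-span share the libraries also differed. Among cells of 4% to 6% long-span UMIs (1264, 1039, 1163, 747 and 1066 cells), MALAT1 was at 0.416%, 0.556%, 0.864%, 1.10% and 2.10%, and NEAT1 at 0.0512%, 0.0648%, 0.112%, 0.164% and 0.298%. In these cells MALAT1 was 1.34-fold higher at 6 h of inhibitor than at 0 h, against 2.09-fold over all cells. Recovery was 2.43-fold over 72 h untreated for MALAT1 and 2.66-fold for NEAT1, against 1.496-fold and 1.75-fold over all cells. The long-span genes themselves differed between libraries, with a median of 4.26%, 6.20%, 5.27%, 4.43% and 3.75% of a cell's UMIs. The window thus lies below the median at 6 h and above it in recovery, and takes different parts of these libraries. As both RNAs rose with the long-span share within each library, the folds in the window depend on where it cuts. The part of the long-span genes in the differences of MALAT1 and NEAT1 was not tested.

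**Figure D4:**
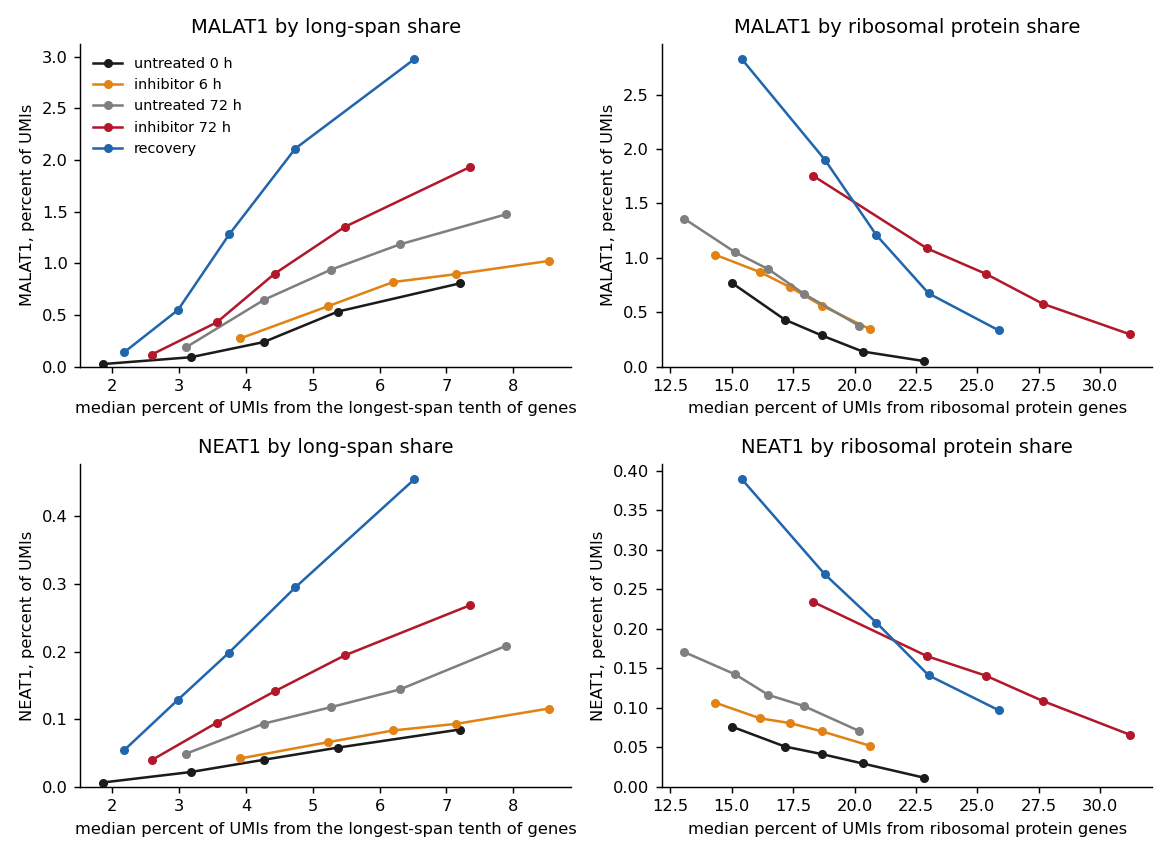
MALAT1 (top) and NEAT1 (bottom) as percent of all UMIs in quintiles of each library's cells by the share of UMIs from the longest-span decile of genes (left) and from ribosomal protein genes (right), placed at the quintile's median. Every line climbs on the left and descends on the right, and between 4% and 6% long-span UMIs the recovery library lies highest and the 0 h library lowest.

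MALAT1 and NEAT1 went together from cell to cell. Spearman's rho between their shares was 0.75, 0.45, 0.49, 0.71 and 0.77 in the 5 libraries. From the lowest to the highest quintile of cells by MALAT1 share, NEAT1 went from 0.00646% to 0.0778% at 0 h untreated, from 0.0466% to 0.115% at 6 h, and from 0.0558% to 0.408% in recovery. The balance between them differed between libraries: for every 100 MALAT1 UMIs there were 12.4, 11.1, 13.9, 15.9 and 16.3 of NEAT1. At 72 h of inhibitor and in recovery NEAT1 was therefore higher relative to MALAT1 than in the untreated libraries.

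Among cells high in G2/M genes, the RNAs parted. In each library the decile of cells with most UMIs from the G2/M list, counted after thinning each cell to 5000 UMIs, was set against the other cells. MALAT1 took 0.438% of UMIs in these cells against 0.332% in the others at 0 h (1.32-fold; 1.31 to 1.33), 0.803% against 0.709% at 6 h (1.13-fold), 0.996% against 0.833% at 72 h untreated (1.20-fold), 1.05% against 0.842% at 72 h of inhibitor (1.253-fold) and 1.55% against 1.24% in recovery (1.24-fold). NEAT1 took 0.0336% against 0.0440% at 0 h (1.31-fold lower; 1.27 to 1.35), 0.0617% against 0.0830% at 6 h (1.34-fold lower), 0.0714% against 0.126% at 72 h untreated (1.76-fold lower), 0.0963% against 0.142% at 72 h of inhibitor (1.48-fold lower) and 0.137% against 0.216% in recovery (1.57-fold lower). MALAT1 was higher and NEAT1 lower in these cells in 5 of 5 libraries. Between the highest and the lowest quintile by G2/M share NEAT1 was also lower in 5 of 5 libraries, at 0.739-fold, 0.632-fold, 0.511-fold, 0.810-fold and 0.463-fold. MALAT1 did not keep 1 direction on that split: it was at 1.39-fold, 1.04-fold, 1.003-fold, 1.397-fold and 0.861-fold. Over all cells the MALAT1 share hardly went with the G2/M share (Spearman's rho 0.09, 0.02, -0.04, 0.07 and -0.09), and the NEAT1 share went against it (-0.05, -0.22, -0.31, -0.08 and -0.33). The share of long-span genes was 0.926-fold to 0.994-fold that of the other cells. G2/M-high cells were deeper, with a median of 29097 to 46390 UMIs across libraries, and the part of depth in these values was not tested.

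**Figure D5:**
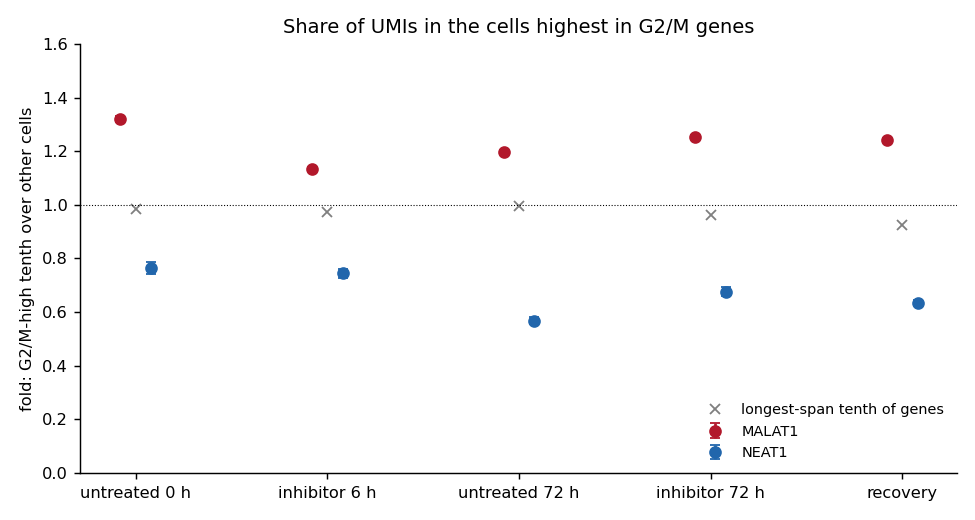
Fold between the decile of cells highest in G2/M genes and the other cells of each library in the share of UMIs from MALAT1, NEAT1 and the longest-span decile of genes, with exact 95% counting intervals for MALAT1 and NEAT1. MALAT1 lies above 1 and NEAT1 below 1 in each library.

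The genes most like MALAT1 from cell to cell were ranked by the lowest of 5 Pearson correlations, 1 per library, on square roots of thinned counts over 2330 genes at 50 CPM or more in every library. NEAT1 came first, at 0.39 to 0.71. ST6GALNAC5, a sialyltransferase, followed at 0.33 to 0.47, then PATJ, a scaffold of the Crumbs polarity complex, at 0.28 to 0.47, EGFR, the amplified growth factor receptor of this line, at 0.26 to 0.52, and ZFAND3 at 0.25 to 0.46. For NEAT1 the first was MALAT1, followed by VOPP1 (0.18 to 0.41), ST6GALNAC5 (0.18 to 0.38), ZFAND3 (0.18 to 0.44) and GMDS, an enzyme of GDP-fucose synthesis (0.18 to 0.34). Of these partners, ST6GALNAC5, PATJ, EGFR, ZFAND3 and GMDS span 192608 to 621887 bases, above the 166.8 kb limit of the long-span decile. Their likeness is therefore not separate from the long-span relation described above. VOPP1 spans 136933 bases, below that limit. The genes least like MALAT1 were GAPDH (-0.54 to -0.36) and the ribosomal protein genes RPL11, RPS19, RPS3 and RPL13. GAPDH was also last for NEAT1 (-0.48 to -0.24), and CHCHD2, RPS3 and RPS19 were among the next. The median correlation with MALAT1 was 0.12 to 0.22 for 186 long-span genes and -0.39 to -0.21 for 83 ribosomal protein genes, beside -0.03 to -0.01 for all 2329 other genes. It was 0.03 to 0.13 for 14 paraspeckle protein genes and 0.04 to 0.11 for 20 nuclear speckle and splicing genes. The G2/M list stood at -0.02 to 0.05 with MALAT1 and at -0.19 to -0.06 with NEAT1 over 18 genes.

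Over the 5 libraries, likeness was taken as the root mean square distance between centred log2 CPM, over 4183 genes of 50 CPM or more in at least 1 library. The genes nearest to MALAT1 were RPS6KC1 (0.15), COG5 (0.16), RAB11FIP1 (0.16), ZFC3H1 (0.20) and UBE2H (0.21), and NEAT1 was number 8 at 0.21. ZFC3H1, a cofactor that targets nuclear polyadenylated RNA to the exosome, was at 20.2, 29.2, 35.0, 37.5 and 54.9 CPM. The genes nearest to NEAT1 were WARS (0.17), YPEL5 (0.19), JMY (0.19), MALAT1 (0.21) and TOM1 (0.21). WARS, the tryptophan tRNA synthetase, was at 20.6, 30.3, 39.9, 55.4 and 82.0 CPM. With 5 points such likeness is a description. For KCNQ1OT1 the nearest were NF1, ASCC1, ARHGAP32, IGF2BP3 and DST at 0.04 to 0.07, and its own pattern rests on 19 to 33 UMIs per library.

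The genes of proteins that gather on these RNAs were compared in the same way. At 6 h of inhibitor against 0 h, where MALAT1 was 2-fold higher, 0 of 34 paraspeckle protein genes and 0 of 29 nuclear speckle and splicing genes were 2-fold apart, near the 2.13% of all genes, with median log2 ratios of -0.03 and 0.00 beside 0.10 for all genes. Between the untreated libraries, 1 of 34 paraspeckle protein genes was 2-fold lower at 72 h: RBM3, a cold-inducible RNA-binding protein, at 21.1 against 74.7 CPM. U2AF2, which binds the polypyrimidine tract in splicing, was the 1 of 29 speckle and splicing genes 2-fold lower, at 23.0 against 48.5 CPM. Of all genes 7.04% were 2-fold apart there. The medians of these lists were -0.25 and -0.19 beside 0.10 for all genes.

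At 72 h of inhibitor against 72 h untreated, 1 of 33 paraspeckle protein genes was 2-fold higher and 1 lower. CIRBP, another cold-inducible RNA-binding protein, was at 126 against 47.7 CPM, and RBM14, which paraspeckle assembly needs, was at 4.75 against 12.6 CPM. Of 29 speckle and splicing genes, 2 were 2-fold higher and 2 lower, where 9.33% of all genes were 2-fold apart. The kinases CLK4 (67.4 against 19.1 CPM) and CLK1 (53.1 against 15.8 CPM), which phosphorylate SR splicing factors, were higher, and the SR factors SRSF3 (143 against 326 CPM) and SRSF7 (140 against 318 CPM) were lower. The median log2 ratio was -0.16 for the paraspeckle list and 0.01 for the speckle and splicing list, beside -0.14 for all genes. From 6 h to 72 h of inhibitor, 1 of 33 paraspeckle protein genes was 2-fold higher and 6 lower, where 15.8% of all genes were 2-fold apart, with a median of -0.58 beside -0.18 for all genes. In recovery against 72 h of inhibitor, RBM14 was 1 of 32 paraspeckle genes 2-fold higher (15.7 against 4.75 CPM) and CLK4 was 1 of 29 speckle and splicing genes 2-fold lower (27.8 against 67.4 CPM). Of all genes 9.3% were 2-fold apart, and the medians were 0.12 and 0.29 beside -0.01 for all genes.

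Genes that process and protect the 3' ends include the RNase P subunits, ELAC2 (RNase Z) and METTL16, which binds the MALAT1 triple helix. Counts in these lists stand beside the same shares of all genes 2-fold apart: 2.13% at 6 h over 0 h, 9.33% at 72 h with over without the inhibitor, 7.04% between the untreated libraries and 9.3% in recovery over 72 h of inhibitor. Of 15 measured, 0 were 2-fold apart at 6 h of inhibitor against 0 h, and METTL16 was at 42.1 against 30.7 CPM. At 72 h of inhibitor against 72 h untreated 3 were 2-fold lower, all RNase P and MRP subunits: POP5 (20.7 against 56.2 CPM), POP1 (4.60 against 11.2 CPM) and POP4 (23.3 against 47.4 CPM). Between the untreated libraries 1 was 2-fold lower at 72 h, RPP40 at 33.7 against 85.8 CPM, and ELAC2 was at 12.96 against 21.5 CPM. The list's median log2 ratio there was -0.41 beside 0.10 for all genes. Of 14 measured in recovery against 72 h of inhibitor, 2 were 2-fold lower, RPP38 (10.98 against 36.3 CPM) and RPP25 (8.13 against 19.4 CPM). Among genes of nuclear RNA decay, 0 of 18 were 2-fold apart at 6 h against 0 h and 0 of 18 between the untreated libraries. EXOSC5, an exosome subunit, was the 1 of 17 that was 2-fold higher at 72 h of inhibitor over 72 h untreated, at 134 against 62.0 CPM. EXOSC10, the nuclear exosome nuclease, was 1 of 16 that was 2-fold lower in recovery than at 72 h of inhibitor, at 7.69 against 16.8 CPM.

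Other nuclear long noncoding RNAs did not all share the course of MALAT1 and NEAT1. FTX and JPX, noncoding RNAs of the X-inactivation centre, were at 102, 172, 178, 106 and 39.0 CPM and at 38.1, 47.7, 37.8, 25.8 and 11.2 CPM. Both were lowest in recovery, where MALAT1 and NEAT1 were highest, and both were among the 3 of 9 measured that were 2-fold lower in recovery than at 72 h of inhibitor, where 9.3% of all genes were 2-fold apart. In that comparison 5 of the 9 were higher in recovery by any amount, and the list's median log2 ratio was 0.06. LINC-PINT, at 4.65, 8.46, 8.54, 8.55 and 17.1 CPM, was lowest at 0 h and highest in recovery, as MALAT1 and NEAT1 were. TUG1 stayed between 26.4 and 37.2 CPM in the 5 libraries. LINC01578 was at 80.5, 78.4, 122, 225 and 287 CPM and so, like MALAT1 and NEAT1, highest in recovery.

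Of 15 measured genes beside NEAT1 and MALAT1 on chromosome 11, 0 were 2-fold apart at 6 h of inhibitor against 0 h, where 2.13% of all genes were, with a median log2 ratio of -0.02, and 1 was 2-fold higher at 72 h untreated over 0 h, SIPA1 at 70.2 against 28.5 CPM (2.46-fold), where 7.04% of all genes were 2-fold apart, with a median of -0.06. At 72 h of inhibitor against 72 h untreated, 3 of the 15 were 2-fold lower and 0 higher, where 9.33% of all genes were 2-fold apart. They were SLC25A45, FAM89B and FRMD8. From 6 h to 72 h of inhibitor, 1 of 15 was 2-fold higher and 2 lower, where 15.8% of all genes were 2-fold apart. FRMD8, the nearest protein-coding neighbour upstream of NEAT1, was at 15.6, 17.6, 20.2, 8.97 and 24.6 CPM. In the imprinted domain of KCNQ1OT1, CDKN1C, a cell cycle inhibitor that KCNQ1OT1 is known to silence on the paternal allele, was at 4.13, 6.38, 13.4, 21.4 and 47.2 CPM. PHLDA2, another imprinted gene there, was at 398, 347, 293, 218 and 604 CPM. The CDKN1C level was highest in recovery, where KCNQ1OT1 gave 19 UMIs, and counts that low give no ground to set the 2 side by side.

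Barcodes that failed the cell filter held more MALAT1 than kept cells in each library. There were 31, 10, 75, 130 and 142 of them, with 1.77%, 2.71%, 1.76%, 2.08% and 1.997% of UMIs from MALAT1 against 0.345%, 0.722%, 0.857%, 0.869% and 1.28% in kept cells. Barcodes of fewer than 1000 genes and at most 20% MT- UMIs (7, 1, 39, 55 and 15) held 6.02%, 0.908%, 3.51%, 5.24% and 4.91%, where the 6 h barcode had 661 UMIs. Those over 20% MT- UMIs with at least 1000 genes (2, 7, 8, 9 and 14) held 1.92%, 2.77%, 2.15%, 1.26% and 4.25%. Barcodes that failed both limits had a median MT- share of 88.5%, 56.3%, 90.05%, 67.6% and 73.9% and held 0.889%, 2.37%, 0.141%, 0.366% and 0.644% MALAT1. NEAT1 in the left-out barcodes was at 0.0539%, 0.161%, 0.110%, 0.165% and 0.291%.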

How the data were processed

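Single-cell RNA of the MDA-MB-468 cell line was counted in 5 libraries, 1 per group, made with a 10x 3' kit, per the labels' protocols. The deposited tables hold whole-number UMI counts of each gene in each barcode. The submitters' processing notes name Cell Ranger 7.1.0 and GRCh38 as what the authors used. For the annotation, strand and intron settings the entry is the same: not given in the sources used here. They bear on nuclear RNA and on antisense genes. Positions and sequences come from GENCODE 29 on GRCh38, which held 34616 of the 36601 feature IDs.

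Barcodes were kept as cells from 1000 detected genes upward, if MT- UMIs were no more than 20%. No doublet caller was run, and cells were not clustered. For each library the counts were summed over kept cells and turned into CPM, and total UMIs per library were 85376888 to 114350566. A gene was called where pooled CPM differed at least 2-fold, among genes of 10 CPM or more in at least 1 of the libraries compared, with sums of 0 set to a floor of 3 counts. Intervals are exact 95% Clopper-Pearson intervals, conditional on the sum of both counts for ratios. Cells thinned at random to 5000 UMIs, without kept cells of fewer UMIs (5, 10, 35, 59 and 75), served for correlations between genes and for cell cycle lists. Ribosomal protein genes were 87 by symbol.

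The members, the gene lists and the comparisons were chosen with earlier results of these data known. Besides the members, the genes named are up to 4 per list with the largest ratios in a comparison, the genomic neighbours and the 5 genes most like each member. From these a selection is printed, some genes are not reported here, and TUG1 and the levels of genes in other libraries were added after their values were seen. The limit of 0.05% MALAT1, the long-span totals, and the windows of ribosomal protein and long-span share were also added after seeing the data. The scripts were tested on simulated data. The versions were numpy 2.4.6, pandas 2.3.3, scipy 1.17.1 and matplotlib 3.10.9, under Python 3.11.15.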

Additional observations from a re-analysis of the deposited data

Results flagged for a closer look

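The relation of MALAT1 to UMI depth went in opposite directions between libraries. The share in the shallowest quintile over that in the deepest was below 1 at 0 h untreated (0.578) and at 6 h of inhibitor (0.832). It was above 1 in the recovery library (2.33), at 72 h of inhibitor (2.39) and at 72 h untreated (1.22). The relation to mitochondrial share also turned. For MALAT1 the lowest-MT quintile over the highest was 0.957 at 0 h and 0.716 in recovery, but 1.25 at 6 h of inhibitor, 1.12 at 72 h untreated and 1.30 at 72 h of inhibitor. For NEAT1 it was 1.13 at 6 h of inhibitor, while it was 0.676 in recovery, 0.785 at 72 h of inhibitor, 0.837 at 72 h untreated and 0.710 at 0 h. With 1 library per group, none of these differences between libraries was tested.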

How the results depend on the processing

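The count of members 2-fold apart depended on the setting in 5 of the 6 comparisons. For 6 h of inhibitor over 0 h, it was 1 as reported, 0 with median-of-ratios or trimmed-mean-of-M-values scaling, and 2 in cells of 2% to 6% MT- UMIs or in cells low in both cell cycle lists. Of the alternatives added after seeing the data, it was 0 with long-span totals, in cells of 4% to 6% long-span UMIs and without cells under 0.05% MALAT1, and 2 in cells of 18% to 24% ribosomal protein UMIs. For recovery over 72 h untreated, it was 0 as reported, 1 under both scalings, and 2 with long-span totals and in both windows. For 72 h over 6 h of inhibitor, it was 0 as reported, 1 with long-span totals and in the long-span window, and 2 in the ribosomal protein window. For 72 h of inhibitor over 72 h untreated, it was 0 as reported and 2 in the ribosomal protein window. The windows of ribosomal protein and long-span share cut libraries at different parts of their range, so counts in them do not compare like parts of the libraries. For 72 h over 0 h untreated, it was 2 as reported and 1 without cells under 0.05% MALAT1. With the other untreated library in place of the one named, the count was 2 for 72 h of inhibitor, 0 for 6 h of inhibitor and 2 for recovery, and the log2 ratio of MALAT1 at 6 h of inhibitor was -0.25 in place of 1.06. Against 72 h untreated it lay below, and against 0 h above. Libraries with more MALAT1 in the highest-MT quintile were 2 of 5, and 1 of 5 with deciles. Counts of libraries under the other alternatives for depth and MT- share were within 1.5 times of those reported, while for NEAT1 at 0 h the direction turned without the 5% of cells with most UMIs (0.984-fold). With median-of-ratios size factors the median log2 ratio over genes shifted by -0.26 to 0.26, depending on the comparison. No paired analysis was possible because each group is 1 library and the labels carry no replicate numbers. MALAT1 and NEAT1 rest on 48871 or more UMIs per library, and KCNQ1OT1 on 19 to 33. Intervals of its ratios reached down to 0.310-fold and up to 2.72-fold across the comparisons. Differences in KCNQ1OT1 inside the interval of a comparison were not detectable at this depth.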
